A study of Mus musculus with 8 samples.

Results

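The 42 collagen genes described here are the rows of the authors' deposited table, out of 23235, whose symbol has the form Col, a number, a and a number, leaving out Col17a1. The rule used names only and no measured value, although it was set with earlier results of these data known. Of the 42, 32 had the status OK, meaning that the authors tested them, and the other 10 had the status NOTEST with at most 0.205 FPKM in either group. FPKM, a fragment count scaled to transcript length and library size, is a level per length. The table's header does not name that unit, which was taken from its layout. The gene that RefSeq now calls Col26a1 stands in the table under its older symbol Emid2, and so is not among the 42. It was listed at 0.311 FPKM in normal tongue and 0.114 in the tumours (q = 0.798).

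Poly(A)-selected RNA of female C57BL/6 mice was sequenced: 5 normal tongues without exposure to 4-nitroquinoline 1-oxide (4-NQO), and 3 squamous cell carcinomas that this carcinogen had induced in the tongue. No genotype or transgene is labelled, and the labels give neither ages, nor dose, nor the region of tongue, nor the share of tumour cells. For each gene the authors deposited 1 FPKM per group, so no value per sample can be shown and the overlap of the groups is not known. Depth per sample is likewise unknown. Nothing says that the samples came from separate animals, so the deposited p-values may measure partly technical spread. All levels, fold changes and q-values below are those of the authors' deposited table, and a gene was called where its q-value was under 0.05. The ± after a log2 fold change (tumour over normal) is the standard error implied by the authors' test. In tissue of mixed cell types, fewer cells of a type and less RNA per cell cannot be told apart.

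Collagens are extracellular proteins built of 3 chains wound into a triple helix. Each chain has glycine, the smallest amino acid, at the start of each group of 3 residues, so the coding sequence carries a glycine codon (GGN) in each group of 3 codons. Fibrillar collagens form the banded fibres of connective tissue, type IV forms the sheet of basement membranes, and fibril-associated collagens sit on the surface of fibres. In the tongue, collagen surrounds muscle bundles and fills the lamina propria beneath the epithelium, and a basement membrane lies between stroma and epithelium.

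The first 90 bases of the longest glycine run are shown to illustrate what makes these genes 1 family. The genes are the most abundant fibrillar and type IV ones in the tumours and the members with the largest called changes. Each stretch lies within an unbroken run, so the stretches do not show how the classes differ. They were read from the GENCODE M21 transcripts (GRCm38) on the sense strand, and capitals mark the glycine codons.
Col1a1 (chromosome 11, coding bases 502 to 591): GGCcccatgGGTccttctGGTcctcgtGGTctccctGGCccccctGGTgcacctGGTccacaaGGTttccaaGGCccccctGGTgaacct
Col4a1 (chromosome 8, coding bases 127 to 216): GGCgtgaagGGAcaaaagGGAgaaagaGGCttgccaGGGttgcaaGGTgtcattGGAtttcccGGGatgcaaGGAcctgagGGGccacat
Col12a1 (chromosome 9, coding bases 8413 to 8502): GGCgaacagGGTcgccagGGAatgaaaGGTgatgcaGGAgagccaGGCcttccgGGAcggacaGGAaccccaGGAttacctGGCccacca
Col14a1 (chromosome 15, coding bases 4549 to 4638): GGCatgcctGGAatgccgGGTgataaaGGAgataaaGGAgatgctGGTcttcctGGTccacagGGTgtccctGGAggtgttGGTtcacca
Col18a1 (chromosome 10, coding bases 2857 to 2946): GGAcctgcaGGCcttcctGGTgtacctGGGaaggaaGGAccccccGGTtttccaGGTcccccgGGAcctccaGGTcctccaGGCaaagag
Col7a1 (chromosome 9, coding bases 7552 to 7641): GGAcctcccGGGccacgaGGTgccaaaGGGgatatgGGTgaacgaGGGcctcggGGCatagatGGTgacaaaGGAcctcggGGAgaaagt

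A coding sequence was found for all 42 genes. In Col1a1 the glycine codon recurred 338 times without a break. The longest run in Col4a1 was 40, and its coding sequence held 22 separate runs of at least 6, since type IV chains are interrupted. Col12a1 and Col14a1 each reached 32, and their runs of at least 6 covered 7.63% and 13.01% of the codons, because most of these proteins is not helical. Col18a1 had 13 runs covering 27.9% of its codons, and Col7a1 had 18 runs covering 47.0%. The 5 called collagens had longest runs from 30 (Col18a1) to 113 (Col22a1), and none was of the fibrillar class. That range is not particular to them, since Col15a1 (30) and Col9a3 (113) were not called.

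In the tumours Col18a1, Col7a1 and Col12a1 rose and Col14a1 and Col22a1 fell, while the abundant chains of types I, III, IV, V and VI were not called. That is 5 of 32 tested collagens (15.6%), 3 higher and 2 lower. The authors' deposited table called 6.26% of all 15783 tested genes, 3.07% higher and 3.19% lower. Of the 32 collagens 13 had a positive and 19 a negative fold change. Their median log2 fold change was −0.30, beside −0.04 over all tested genes, and 0.015 among the 25 collagens that reached 1 FPKM in either group. The summed level of the 32 was 267 FPKM in normal tongue and 273 in the tumours, or 258 and 230.5 without Col18a1.

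**Figure D1:**
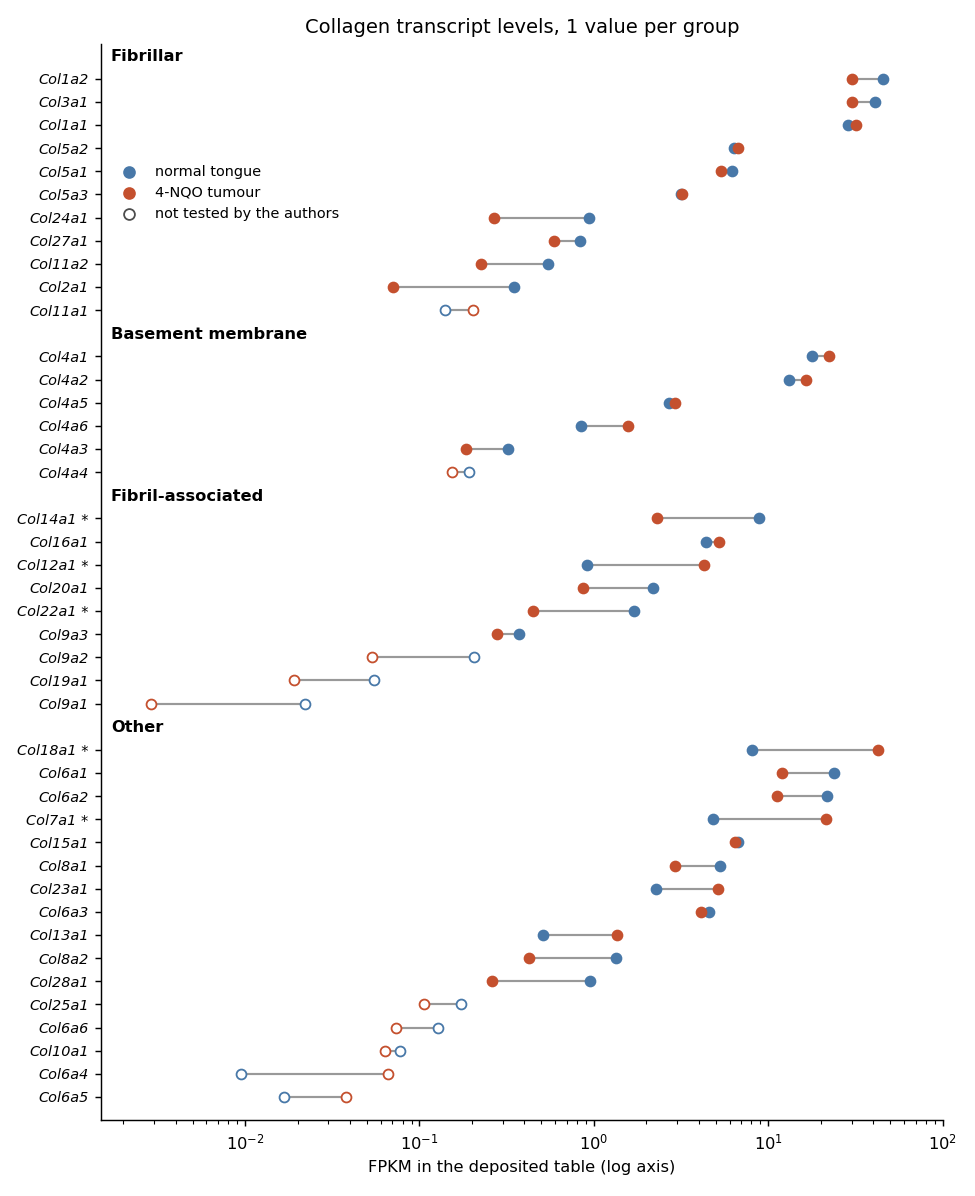
FPKM of the 42 collagen genes on a log axis, by class, in normal tongue (blue) and 4-NQO tumours (red), each point being the authors' single value for a group; open points were not tested, and an asterisk marks a q-value under 0.05. Col18a1 moved from 8.11 to 42.3 FPKM, while Col1a1 stood at 28.7 and 31.8.

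The order of the levels differed at the top. In the deposited table Col1a2 (45.3 FPKM), Col3a1 (41.0) and Col1a1 (28.7) led in normal tongue, and Col18a1 (42.3 FPKM), Col1a1 (31.8) and Col1a2 (30.2) led in the tumours. Col18a1 went from rank 9 to rank 1 of the 32, Col7a1 from 14 to 6 and Col12a1 from 25 to 15. Col14a1 went from rank 8 to 20. Since the table holds no spread, it cannot be said which neighbours in this order differ.

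The fibrillar class had no called member. Type I collagen, the main protein of fibres, is made of 2 Col1a1 chains and 1 Col1a2 chain. In the authors' deposited table Col1a1 was listed at 28.7 FPKM in normal tongue and 31.8 in the tumours (0.15 ± 0.49, q = 1.00). Col1a2 was listed at 45.3 and 30.2 FPKM (−0.58 ± 0.50, q = 1.00). The level of Col1a2 was 1.58 times that of Col1a1 in normal tongue and 0.951 times in the tumours, and this difference was not tested. Col3a1, whose homotrimer accompanies type I in pliable tissue, was listed at 41.0 and 30.1 FPKM (−0.44 ± 0.50, q = 1.00).

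Type V chains, which start fibres and limit their width, had log2 fold changes near 0 in the deposited table. Col5a1 had 6.17 FPKM in normal tongue and 5.36 in the tumours (−0.20 ± 0.43), Col5a2 at 6.37 and 6.71 (0.08 ± 0.43) and Col5a3 at 3.15 and 3.19 (0.01 ± 0.45), each with q = 1.00. The 95% intervals of Col5a2 and Col5a3, −0.76 to 0.92 and −0.88 to 0.91, lie within a 2-fold change in both directions. Only 1 other collagen without a call, Col15a1, had an interval within those limits. Of the 27 collagens without a call, the intervals of 18 included 0 and those of 24 reached a 2-fold change. The missing calls thus do not show that most of these genes were unchanged.

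The remaining fibrillar genes were scarce, below 1 FPKM in both groups. All 4 tested ones had negative fold changes in the deposited table. Col24a1, known from developing bone, was listed at 0.938 and 0.269 FPKM (−1.80 ± 0.64, q = 0.131). The cartilage collagen Col2a1 was listed at 0.346 and 0.0700 FPKM (−2.31 ± 1.17, q = 0.590). Col11a2 (−1.27 ± 0.73, q = 0.766) and Col27a1 (−0.49 ± 0.57, q = 1.00), both of cartilage, also missed the limit. Col11a1 was not tested, at 0.140 and 0.202 FPKM. Across the class the median log2 fold change was −0.47, or −0.09 among the 6 members that reached 1 FPKM in either group. The summed level was 133 FPKM in normal tongue and 109 in the tumours, a ratio of 0.814.

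Of the cartilage and tendon markers, 5 of 10 were tested, 4 of those 5 had negative fold changes in the deposited table, and the median was −0.35. The cartilage proteoglycan Acan was listed at 0.0954 and 0.00799 FPKM without a test. The called member was Sox9, a transcription factor of cartilage and also of epithelia, at 1.67 and 5.77 FPKM (1.79 ± 0.51, q = 0.0204). The summed level of the tested markers was 8.01 FPKM in normal tongue and 8.99 in the tumours, or 6.33 and 3.22 without Sox9. The part of cartilage in the values of Col2a1 and Col11a2 was not tested.

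**Figure D2:**
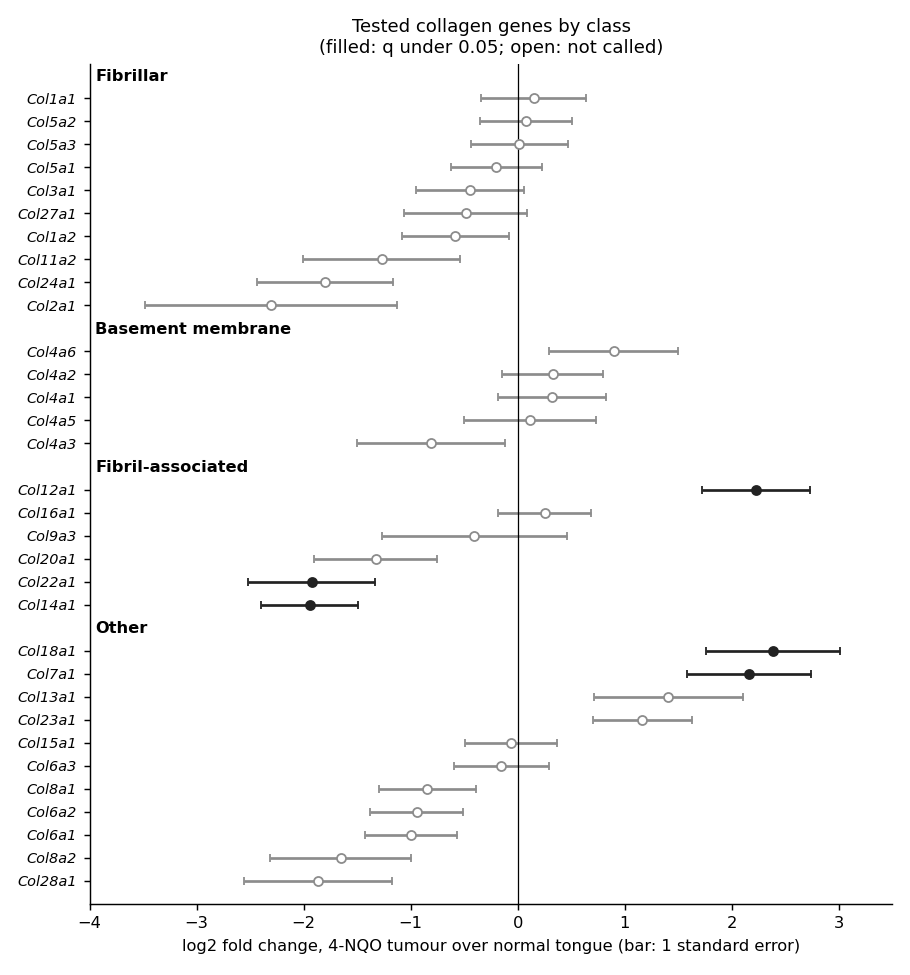
Log2 fold change, tumour over normal tongue, of the 32 tested collagens by class, with bars of 1 standard error implied by the authors' test; filled points have q under 0.05. The 5 filled points lie at 1.93 or more on either side of 0 and belong to the fibril-associated and other classes.

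The basement membrane class as used here holds only the type IV chains. None of these was called, and 4 of 5 tested ones had positive fold changes. Col18a1, Col7a1 and Col15a1, also of basement membranes or their zones, were counted with the other collagens and are described there. Col4a1 and Col4a2, which assemble into the trimer found in nearly all basement membranes, had nearly equal log2 fold changes. In the authors' deposited table Col4a1 was listed at 17.8 FPKM in normal tongue and 22.1 in the tumours (0.32 ± 0.51, q = 1.00). Col4a2 was listed at 13.1 and 16.4 FPKM (0.32 ± 0.47, q = 1.00). The ratio of their levels was 1.36 in normal tongue and 1.35 in the tumours.

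These chains come as neighbouring pairs read in opposite directions from a common start region. In the loci of the deposited table Col4a1 ends 2 bases before Col4a2 begins on chromosome 8, Col4a4 ends 71 bases before Col4a3 on chromosome 1, and Col4a6 ends 1342 bases before Col4a5 on the X chromosome. The RefSeq start windows of Col4a1 and Col4a2 (GRCm38.p6, 250 bases before to 50 after each start) share 78 bases, and the starts are 21 bases apart. Both windows are shown because the ratio of the pair was nearly equal in both groups. Capitals mark the CCAAT box (CCAAT) and the GC box (GGGCGG), searched on both strands.
Col4a1, chr8:11312777-11313076, minus strand: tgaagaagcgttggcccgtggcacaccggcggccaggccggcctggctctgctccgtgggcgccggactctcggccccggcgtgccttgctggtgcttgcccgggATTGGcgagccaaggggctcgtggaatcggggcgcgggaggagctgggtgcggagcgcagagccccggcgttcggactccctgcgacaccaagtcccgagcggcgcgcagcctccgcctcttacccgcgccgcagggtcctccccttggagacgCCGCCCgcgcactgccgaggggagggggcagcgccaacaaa
Col4a2, chr8:11312555-11312854, plus strand: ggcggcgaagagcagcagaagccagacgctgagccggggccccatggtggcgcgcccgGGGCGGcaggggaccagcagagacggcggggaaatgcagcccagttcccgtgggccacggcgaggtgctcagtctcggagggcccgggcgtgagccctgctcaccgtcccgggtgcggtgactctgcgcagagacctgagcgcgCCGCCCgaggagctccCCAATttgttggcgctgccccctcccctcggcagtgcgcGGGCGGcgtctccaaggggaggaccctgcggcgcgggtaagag

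The CCAAT box was found in 12 and the GC box in 23 of 37 collagen windows, which cover 34 of the 42 genes. Over all 32851 windows of that table, 37.4% held the CCAAT box and 35.7% the GC box. The TATA letters TATAA were in 6 collagen windows and in 24.9% of all windows. The AP-1 letters TGANTCA were in 1 collagen window, that of Col6a1, and in 7.81% of all windows. Letters in a window are no evidence of a working site.

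The other type IV pairs were less even. Col4a5 and Col4a6 share a trimer in the basement membranes of epithelium and smooth muscle. The deposited table listed Col4a5 at 2.70 and 2.93 FPKM (0.12 ± 0.62, q = 1.00) and Col4a6 at 0.846 and 1.57 FPKM (0.89 ± 0.61, q = 0.966). Their ratio was 3.20 in normal tongue and 1.86 in the tumours. Col4a3 was listed at 0.322 and 0.184 FPKM (−0.81 ± 0.69, q = 1.00), and its partner Col4a4 was not tested. The class summed to 34.7 FPKM in normal tongue and 43.2 in the tumours, a ratio of 1.24, and its median log2 fold change was 0.32.

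Partners of type IV in the basement membrane were split by chain. The authors' deposited table called 2 higher and 2 lower of 15 tested laminins, nidogens and related genes, with a median log2 fold change of −0.20. That is 26.7% called, beside 6.26% over all tested genes. Lama3 and Lamb3, laminin chains under stratified epithelium, were the risers: Lama3 rose from 2.51 to 23.8 FPKM (3.24 ± 0.77, q = 0.00194) and Lamb3 from 13.9 to 62.5 (2.17 ± 0.63, q = 0.0235). Lama2, the laminin chain of muscle fibres and Schwann cells, fell from 3.97 to 1.33 FPKM (−1.58 ± 0.45, q = 0.0202), and Lamb2, also of muscle, fell from 31.9 to 11.04 (−1.53 ± 0.46, q = 0.0331).

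The fibril-associated class held 3 of the 5 calls, in both directions. That is 50% of its 6 tested genes, beside 6.26% over all tested genes. Col12a1 and Col14a1 have a similar plan, a long chain of fibronectin and von Willebrand domains with a short helix, and both bind the surface of type I fibres. Col12a1, typical of tissue under tension, rose from 0.914 to 4.27 FPKM in the deposited table, a 4.67-fold change (2.22 ± 0.51, q = 0.000951). Col14a1, abundant in resting skin and tendon, fell from 8.83 to 2.29 FPKM, a 3.85-fold change (−1.94 ± 0.45, q = 0.00138). The level of Col12a1 was 0.104 times that of Col14a1 in normal tongue and 1.86 times in the tumours.

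Col22a1, a collagen of the junction of muscle and tendon, fell from 1.70 to 0.448 FPKM (−1.93 ± 0.59, q = 0.0446), the weakest of the 5 calls. With 1 FPKM added to both groups its log2 fold change was −0.90, and that of Col12a1 was 1.46. Of 10 skeletal muscle markers 6 were tested, and all 6 had negative fold changes with a median of −1.64. Of these Myh2, a fast myosin, fell from 414 to 33.0 FPKM (−3.65 ± 0.67, q = 7.74e-06) and Myot, of the Z disc, from 313 to 83.1 (−1.91 ± 0.54, q = 0.0195). The summed level of the tested muscle markers was 5539 FPKM in normal tongue and 1870 in the tumours. The other 4, Acta1, Ckm, Myh1 and Myh4, have the status HIDATA and were not tested. Each is listed at 0 in normal tongue, at 386 to 2360 FPKM in the tumours and with a log2 fold change of 0. Their 0 level in normal tongue is thus not taken as an absence. The part of muscle in the value of Col22a1 was not tested.

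Of the other fibril-associated genes, Col16a1, found near basement membranes and on thin fibrils, was listed at 4.39 and 5.22 FPKM (0.25 ± 0.44, q = 1.00) in the deposited table. Col20a1 was listed at 2.17 and 0.866 FPKM (−1.33 ± 0.58, q = 0.367). Col9a3, a chain of the type IX collagen of cartilage, was listed at 0.370 and 0.279 FPKM (−0.41 ± 0.86, q = 1.00), and its locus overlaps that of Tcfl5. Its partners Col9a1 and Col9a2, and Col19a1, were at or below 0.205 FPKM and not tested. The class had a median log2 fold change of −0.87 and summed to 18.4 FPKM in normal tongue and 13.4 in the tumours. Without Col14a1 the ratio of those sums turned from 0.728 to 1.16.

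Among the remaining collagens Col18a1 and Col7a1 rose, both components of basement membrane zones. Col18a1, a proteoglycan of basement membranes whose end fragment is endostatin, rose from 8.11 to 42.3 FPKM in the authors' deposited table, 5.22-fold (2.38 ± 0.62, q = 0.00791). It held 3.04% of the summed collagen level in normal tongue and 15.5% in the tumours. RefSeq lists start windows for Col18a1 at 2 places, chr10:77166481-77166780 and chr10:77113656-77113955 (GRCm38.p6, minus strand), and the deposited gene-level value does not separate the transcripts. Col7a1, which forms the anchoring fibrils that fasten epithelium to the stroma, rose from 4.81 to 21.5 FPKM, 4.47-fold (2.16 ± 0.58, q = 0.0112).

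Basal keratinocytes lie on the basement membrane and make Col7a1. In the same table, 8 of 9 of their markers were tested, 7 of these had positive fold changes, and 3 rose, with a median of 2.05. The 3 are 37.5% of the tested markers, beside 6.26% called over all tested genes. Cdh3, P-cadherin, rose from 3.66 to 37.0 FPKM (3.34 ± 0.66, q = 4.62e-05), with Lama3 and Lamb3. The basal keratin Krt15 was listed at 415 and 143 FPKM without a call (−1.53 ± 0.66, q = 0.350). Krt5, at 843 and 3201 FPKM, was not called either (1.93 ± 2.38, q = 1.00). The summed level of the tested markers was 1345 FPKM in normal tongue and 3687 in the tumours, or 503 and 486 without Krt5. Krt14 has the status HIDATA and was not tested. It is listed at 750 FPKM in normal tongue, at 0 in the tumours and with a log2 fold change of 0. Its 0 level in the tumours is thus not taken as an absence. The part of keratinocytes in the values of Col7a1 and Col18a1 was not tested.

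Col15a1, the close relative of Col18a1 in basement membranes of muscle and capillaries, was listed at 6.72 and 6.41 FPKM in the deposited table (−0.07 ± 0.43, q = 1.00). Of the 9 endothelial markers, all tested and all with negative fold changes, Cdh5 fell from 20.2 to 7.27 FPKM (−1.47 ± 0.43, q = 0.0279), and the median was −1.03. The summed level of the endothelial markers was 125 FPKM in normal tongue and 68.4 in the tumours. The part of vessels in the levels of Col4a1, Col4a2, Col15a1 and Col18a1 was not tested.

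Type VI collagen forms beaded filaments around muscle fibres, fibroblasts and vessels. Its chains Col6a1 and Col6a2 were listed at 23.8 and 21.7 FPKM in normal tongue, and at 11.9 and 11.3 in the tumours. Their log2 fold changes were −0.998 ± 0.43 (q = 0.364) and −0.94 ± 0.43 (q = 0.436) in the deposited table, and their ratio was 1.10 in normal tongue and 1.06 in the tumours. The third chain, Col6a3, was listed at 4.58 and 4.12 FPKM (−0.15 ± 0.44, q = 1.00). Col6a1 was thus 5.19 times Col6a3 in normal tongue and 2.90 times in the tumours, a difference that was not tested. The alternative chains Col6a4, Col6a5 and Col6a6 were at or below 0.127 FPKM and were not tested.

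Among the membrane-spanning collagens of the 42, which leave out Col17a1, both tested genes had positive fold changes without calls. Col23a1 was listed at 2.28 and 5.12 FPKM (1.16 ± 0.47, q = 0.261) in the deposited table. Col13a1, known from the neuromuscular junction, was listed at 0.513 and 1.36 FPKM (1.41 ± 0.70, q = 0.554). Col25a1, the other one among the 42, was not tested and was listed at 0.172 and 0.106 FPKM. The short-chain Col8a1, of vessel walls, was listed at 5.27 and 2.93 FPKM (−0.85 ± 0.45, q = 0.659). Its partner Col8a2 was listed at 1.34 and 0.424 FPKM (−1.66 ± 0.66, q = 0.252). The hypertrophic cartilage collagen Col10a1 was not tested, and its locus overlaps that of Nt5dc1.

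Col28a1, which in mouse lies around Schwann cells, was listed at 0.947 and 0.260 FPKM in the deposited table (−1.87 ± 0.69, q = 0.169). All 4 Schwann cell markers used had negative fold changes with a median of −1.30. Sox10, a transcription factor of Schwann cells, was listed at 3.81 and 1.33 FPKM (−1.52 ± 0.58, q = 0.199). The summed level of the 4 was 17.7 FPKM in normal tongue and 7.82 in the tumours. The part of nerve in the value of Col28a1 was not tested.

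**Figure D3:**
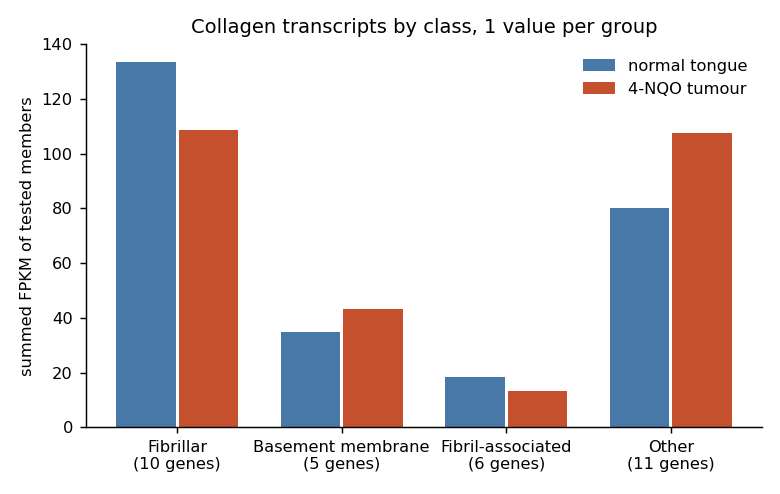
Summed FPKM of the tested collagens of each class in normal tongue (blue) and 4-NQO tumours (red); each bar is 1 value per group and has no error. The fibrillar sum was 133 and 109 FPKM, and that of the other collagens 80.1 and 108.

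By class, the fibrillar genes held 50.03% of the summed collagen level in normal tongue and 39.8% in the tumours. The remaining collagens held 30.05% and 39.5%, the type IV chains 13.02% and 15.8%, and fibril-associated genes 6.90% and 4.90%. Col1a1, Col1a2 and Col3a1 together made up 43.1% and 33.8%. The higher sum of the remaining collagens rests on Col18a1: without it, the ratio of their sums in the deposited table turned from 1.34 to 0.907.

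Fibroblasts make most of the fibrillar and fibril-associated chains. Of 14 fibroblast markers 13 were tested, and 11 of them had negative fold changes with a median of −0.92. In the authors' deposited table Dpt, dermatopontin, which binds collagen fibres, fell from 103 to 30.3 FPKM (−1.76 ± 0.46, q = 0.00863), and Fap fell from 5.19 to 1.43 (−1.86 ± 0.57, q = 0.0425). Pdgfra, a receptor that marks fibroblasts, was listed at 7.25 and 3.18 FPKM without a call (q = 0.359). Postn, periostin, was listed at 11.8 and 20.4 FPKM (0.79 ± 0.50, q = 0.880). The markers summed to 714 FPKM in normal tongue and 448 in the tumours. Their part in the values of Col14a1 and the fibrillar genes was not tested.

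Among 25 tested genes that fold, trim and cross-link collagen, the deposited table called 1, which was lower. That is 4.0%, beside 6.26% over all tested genes, and their median log2 fold change was −0.13. Pcolce2, which enhances the removal of the procollagen end, fell from 22.04 to 5.70 FPKM (−1.95 ± 0.47, q = 0.00214). Its relative Pcolce was listed at 34.8 and 14.03 FPKM (−1.31 ± 0.45, q = 0.110). The collagen chaperone Serpinh1 was listed at 37.6 and 34.3 FPKM (q = 1.00), and the cross-linking enzyme Lox at 1.21 and 1.73 (q = 1.00).

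Collagen breakdown genes included large rises. The list of 13 tested genes also holds the inhibitors Timp1, Timp2, Timp3 and Timp4. Of the 13, 4 rose and none fell. That is 30.8% called, beside 6.26% over all tested genes. The median log2 fold change was 0.15 with the inhibitors included, so it does not describe the breakdown genes alone. Apart from the inhibitors, the genes without a call were split. Mmp14 and Mrc2 had positive fold changes, and Ctsk, Mmp2 and Mmp8 had negative ones. The collagenase Mmp13, which cuts fibrillar collagen, rose from 0.327 to 24.995 FPKM (6.26 ± 1.00, q = 7.57e-08). Mmp10 (9.42 ± 1.57), Mmp3 (2.92 ± 0.57) and Mmp9 (2.46 ± 0.63) were the others. The size of the Mmp10 change rests on a normal level close to 0, at 0.0152 FPKM beside 10.4 in the tumours. The membrane collagenase Mmp14 was listed at 14.4 and 36.6 FPKM (1.34 ± 0.46, q = 0.107) and was not called. The inhibitors Timp2 (−1.04 ± 0.47), Timp3 (−1.31 ± 0.47) and Timp4 (−0.86 ± 0.61) had negative fold changes and Timp1 (1.92 ± 4.74) a positive one, none of them called.

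**Figure D4:**
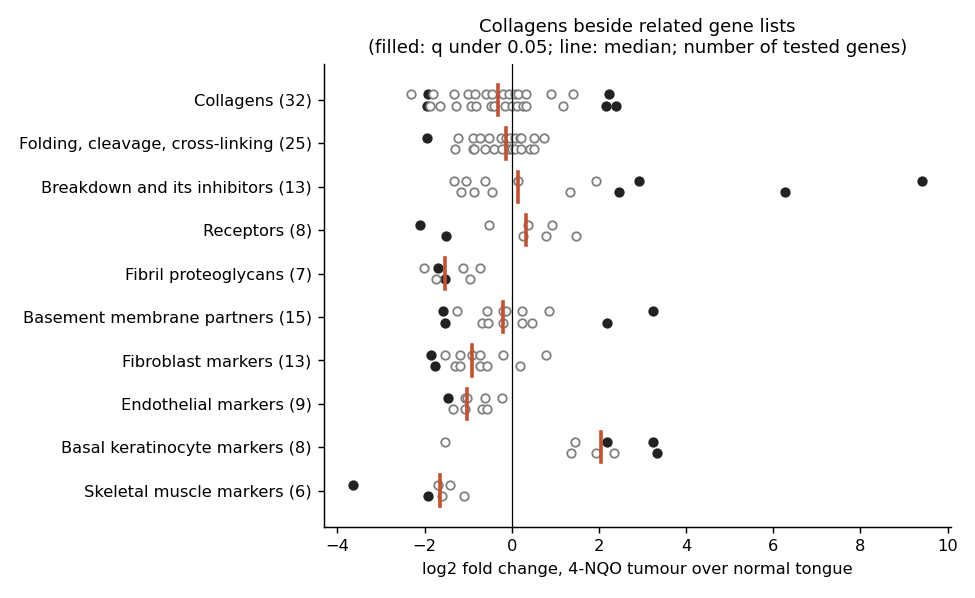
Log2 fold change, tumour over normal tongue, of each tested gene in the collagen set and 9 related lists; filled points have q under 0.05 and the vertical line is the median. The collagen median lies at −0.30, that of the fibril proteoglycans at −1.53 and that of the basal keratinocyte markers at 2.05.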

How the data were processed

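RNA of 5 normal tongues and 3 tumours was sequenced from Illumina TruSeq libraries with poly-T selection, per the labels' protocols. The submitters' processing notes name GSNAP 2011.11.17, edgeR and GRCh37, a human assembly, with no role given; neither the program behind the table nor its mouse build is given in the sources used here. The authors deposited 1 FPKM value per gene and group, so depth is unknown. Per the file headers, each row also holds a log2 fold change, a test statistic (a score whose sign is opposite to the fold change in 100% of finite tested rows), a p-value and a q-value.

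No new test was possible. A called gene had a deposited q-value under 0.05, which differed from the authors' own call in 0 of the 15783 rows with status OK. The standard error is the fold change divided by the statistic, because treating the statistic as a normal deviate returned the deposited p-value within 2.81e-06. A 95% interval is normal. The deposited fold change equals the log2 FPKM ratio. A pseudocount of 1 FPKM, re-centring, a minimum of 1 FPKM, other q limits and Benjamini-Hochberg adjustment were alternatives; sums without the member that differed most were added after seeing the data.

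Every tested collagen that reached 1 FPKM in either group was to be named. Of other lists, up to 3 called members with at least 5 FPKM were, plus members added for context after their values were seen. The members and lists were chosen with earlier results of these data known. Of the lists, 3 genes are not reported here and were left out of the counts. RefSeq accessions matched 41 of 42 symbols. Coordinates of start windows are GRCm38.p6 and were not mixed with the table's loci. Python 3.11.15, pandas 2.3.3 and scipy 1.17.1 were used.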

Additional observations from a re-analysis of the deposited data

Results flagged for a closer look

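Col6a4, an alternative chain of type VI collagen, lies among the rows that the authors did not test and that enter no comparison. It was listed at 0.0095 FPKM in normal tongue and 0.0664 in the tumours, a log2 fold change of 2.81 ± 1.18 with an unadjusted deposited p-value of 0.0171. It stands here because a row outside the comparisons was higher in the tumours than in normal tongue. Both levels are close to 0, and none of the other 9 untested collagens had a p-value under 0.05.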

How the results depend on the processing

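The count of 5 called collagens stayed at 5 with q under 0.1, with Benjamini-Hochberg adjustment over all tested rows and among genes that reached 1 FPKM in either group, and was 3 with q under 0.01, where Col7a1 and Col22a1 were lost. Over all tested genes those 2 q limits called 8.05% and 3.62%, and the adjustment 8.997%. The median log2 fold change of the collagens, −0.30, turned to 0.015 under that 1 FPKM minimum, a setting that leaves out 7 scarce genes. That of the fibril-associated class moved from −0.87 to −1.52 when its 3 untested genes entered. The ratio of summed levels turned from 0.728 to 1.16 in the fibril-associated class without Col14a1, and from 1.34 to 0.907 in the other collagens without Col18a1. Without the member that differed most, chosen after seeing the data, the ratio of sums turned from 1.02 to 0.892 for all collagens (Col18a1), from 1.12 to 0.508 for the cartilage and tendon markers (Sox9) and from 2.74 to 0.967 for the basal keratinocyte markers (Krt5). Adding 1 FPKM to both groups cannot change the sign of a fold change. It moved 8 of 32 tested collagens by more than 1 standard error. Re-centring by −0.04 moved none that far. No replicate could be left out, and no paired analysis was possible because the table holds 1 value per group and none per sample. Small changes in genes below 1 FPKM were not detectable.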

Other observations

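The receptors that cells use to bind collagen were mixed in the authors' deposited table. Of 8 tested receptor genes 2 fell and none rose, with a median log2 fold change of 0.32. That is 25% called, beside 6.26% over all tested genes. Ddr2, a tyrosine kinase receptor for fibrillar collagen on mesenchymal cells, fell from 5.68 to 2.01 FPKM (−1.50 ± 0.45, q = 0.0364). Itga11, the integrin chain by which fibroblasts bind type I collagen, fell from 1.75 to 0.404 FPKM (−2.11 ± 0.60, q = 0.0218). Their epithelial counterparts had positive fold changes without calls: Ddr1 was listed at 30.7 and 58.1 FPKM (0.92 ± 0.55, q = 0.801) and Itga2 at 0.677 and 1.88 FPKM (1.47 ± 0.64, q = 0.376). Whether the fibroblast and epithelial receptors differ was not tested.

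The small proteoglycans that coat collagen fibrils all had negative fold changes. Of 7 tested ones 2 fell in the deposited table, 28.6% called beside 6.26% over all tested genes. Their median was −1.53, with summed levels of 603 FPKM in normal tongue and 208 in the tumours. Lum, lumican, fell from 56.4 to 17.3 FPKM (−1.70 ± 0.46, q = 0.0115) and Prelp from 17.9 to 6.18 FPKM (−1.53 ± 0.43, q = 0.02004). Decorin, Dcn, was the most abundant, at 424 and 127 FPKM, and was not called (−1.74 ± 0.72, q = 0.293).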
